A study of Mus musculus with 9 samples.

Results

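The genes described are Stat3, Socs3, the receptor genes Il6st, Osmr, Lifr and Il6ra, the kinase genes Jak1 and Jak2, and the ligand genes Cntf and Lif. They were chosen by name, as genes of the signalling route from the receptor subunit gp130 to STAT3, and all 10 were found among the 33586 entries of the deposited table. The table holds FPKM, a read density scaled to transcript length and library size, for 9 mouse brain libraries of a study of collagenase-induced intracerebral haemorrhage. There were 3 libraries each in an intervention group (P), an experimental group (M) and a control group (C). The RNA came from brain beside the haematoma, and the title names miR-124 carried on tetrahedral nucleic acid nanomaterials. The sources used here do not give what each group received, whether controls were injected with collagenase, or the strain, age and time of sampling.

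As background, cytokines of the interleukin-6 family bind a receptor of their own and then gp130, the shared signalling subunit, which Il6st encodes. Kinases of the JAK family bound to these receptors then phosphorylate STAT3, a transcription factor that enters the nucleus and induces, among others, Socs3, whose product binds gp130 and JAKs and damps the signal. In injured brain this route is known for its part in the reactive state of astrocytes.

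Across libraries, between 13408 and 14260 genes reached 1 FPKM; without counts, sequencing depth is not known. The markers of neurons, astrocytes, microglia, endothelium and oligodendrocytes were all present, as the brain label says. In bulk tissue, fewer cells of a type and less RNA per cell cannot be told apart. Summed over 6 markers each, microglial genes ranged from 325.6 to 372.0 FPKM in intervention, from 369.9 to 467.9 FPKM in experimental and from 102.0 to 116.2 FPKM in control libraries. The sum of astrocyte markers was 657.4 to 768.9, 691.2 to 1007 and 223.1 to 246.9 FPKM in the same order of groups, and that of monocyte and macrophage markers 128.6 to 175.4, 242.7 to 263.5 and 11.57 to 11.92 FPKM. Lyz2 (means 99.9, 172.7 and 6.34 FPKM) and Cd68 (54.4, 71.3 and 4.42 FPKM) made up most of this last sum. Ccr2 and Ms4a7, from the same list, averaged 1.09 and 1.05 FPKM in experimental libraries and were too low to be tested. Limma, a linear model fitted across genes, called 6 of 6 microglial and 5 of 6 astrocyte markers higher in both groups against control. The uncalled astrocyte marker was Slc1a2. Gfap was the largest part of the astrocyte sum in intervention (mean 428.7 FPKM) and experimental libraries (545.4 FPKM), and averaged 37.9 FPKM in control libraries. Neuron markers summed to 517.7 to 577.7, 463.1 to 555.7 and 718.5 to 804.0 FPKM. Endothelial markers summed to 96.03 to 109.0, 115.8 to 139.3 and 54.3 to 58.8 FPKM, with 4 of 6 called higher in intervention and 6 of 6 in experimental libraries against control. The 6 neutrophil markers summed to 6.637 to 9.889, 12.83 to 14.58 and 1.535 to 8.085 FPKM. Csf3r (means 6.17, 9.10 and 1.21 FPKM) made up most of this sum in intervention and experimental libraries. Of the 3 tested, Csf3r was called higher in both groups and S100a8 in experimental libraries, while Ly6g was listed at 0 in all libraries of both groups. S100a9 was called in neither. Retnlg, under the filter, ran the other way, with means of 0, 0.136 and 0.358 FPKM in the same order of groups. Of the red blood cell markers, 4 of 4 tested were called lower in intervention (limma adjusted p 0.02607 to 0.04581) and 0 of 4 in experimental libraries against control. All 4 estimates were also below 0 in experimental libraries (limma adjusted p 0.1336 to 0.2565), and 0 of 4 were called in intervention against experimental. The 5 markers summed to 141.6 FPKM in control replicate 2, against 55.66 and 50.19 FPKM in control replicates 1 and 3. Over all genes tested, limma called 16.9% higher and 11.4% lower in intervention and 19.9% higher and 17.3% lower in experimental libraries. How far these shifts in marker level take part in the results below was not tested.

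Relative to control, experimental libraries held more RNA of the transcription factor, of its feedback inhibitor, of gp130 and of some of the receptors and ligands, and the levels of the kinases and of the LIF receptor differed by less than the test could call. Socs3 rose most, with a mean FPKM 8.98 times that of control, followed by Osmr (7.72 times), Il6ra (3.38 times), Cntf (2.76 times), Stat3 (2.32 times) and Il6st (1.38 times). Fitted across 14570 genes with at least 1 FPKM in 3 or more libraries, limma called 6 of the 9 tested members higher and 0 lower at a Benjamini-Hochberg adjusted p under 0.05. Of all genes tested, 19.9% were called higher and 17.3% lower. After rescaling each library to the same total (TPM), which moved the median log2 fold change of all genes to -0.18, 2175 genes were higher and 4661 lower. Osmr, Il6ra and Cntf lay under 1 FPKM in all control libraries, so that they passed the filter only through the groups where they were higher. That leaves 3 of the 6 other tested members called higher. Lif did not pass the filter.

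**Figure D1:**
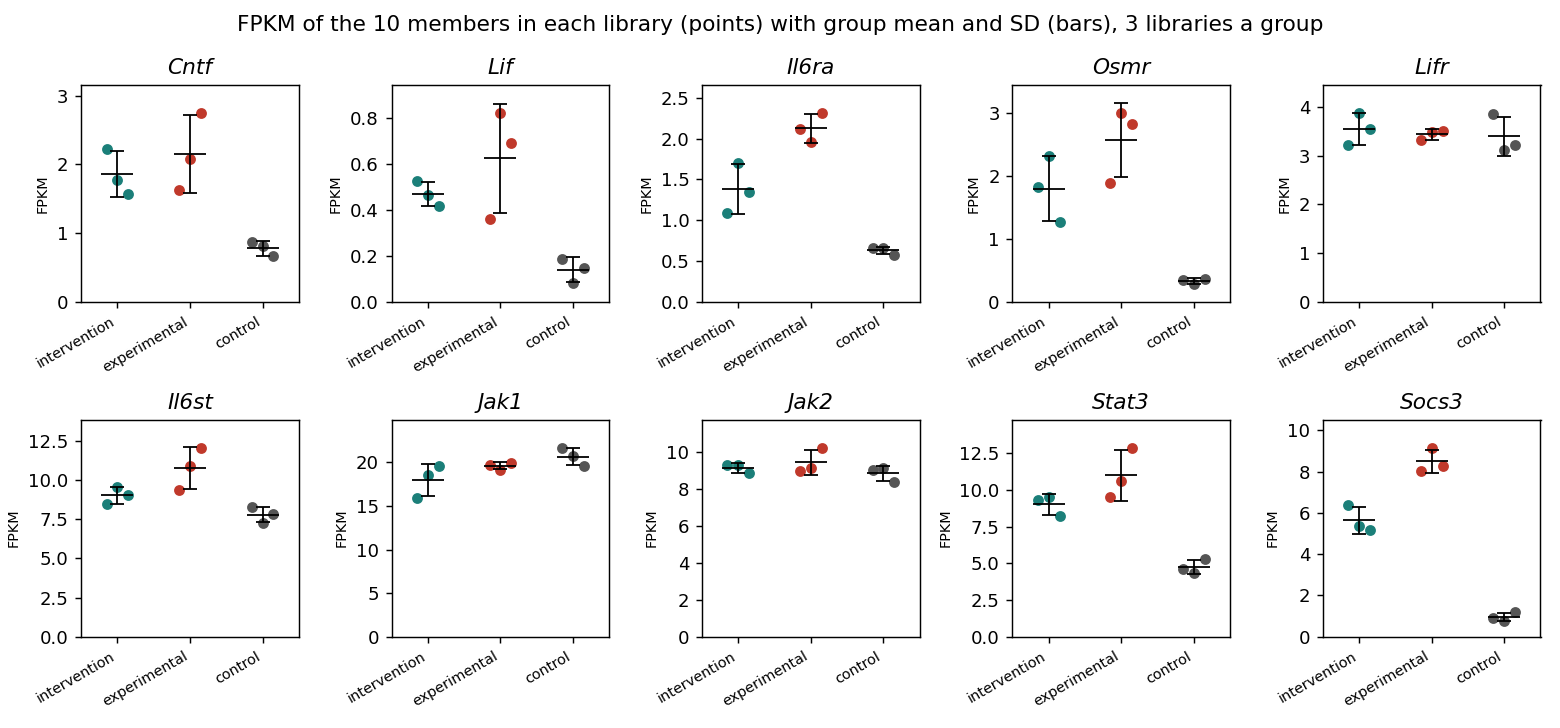
FPKM (linear axis from 0) of the 10 members in each library, as points, with the mean and SD of 3 libraries as bars. For Socs3 the 3 groups lie apart, with experimental libraries at 8.04 to 9.14, intervention libraries at 5.16 to 6.40 and control libraries at 0.763 to 1.17 FPKM, while the points of Lifr and Jak2 overlap across groups.

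Of the ligands, Cntf encodes ciliary neurotrophic factor, a survival factor for neurons that acts through gp130 and the LIF receptor. It was at 2.23, 1.77 and 1.57 FPKM in intervention, 1.63, 2.08 and 2.75 FPKM in experimental and 0.867, 0.811 and 0.661 FPKM in control libraries. Both other groups lay above all control libraries and overlapped each other. The log2 fold change, on the scale of FPKM + 1 as throughout, was 0.81 ± 0.14 (SE) in experimental against control (limma adjusted p = 0.00156) and 0.68 ± 0.14 in intervention against control (limma adjusted p = 0.00628). The Cntf value is uncertain, because the gene lies inside Zfp91 on the same strand and shares 78.9% of its exon bases with it. Zfp91 itself has 2 entries in the deposited table, and the one with the lower mean FPKM was not examined. The other was at 15.08 to 16.53, 14.68 to 16.49 and 14.3 to 17.33 FPKM in intervention, experimental and control libraries, with all 3 groups overlapping.

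Lif, which encodes leukaemia inhibitory factor, was at 0.523, 0.463 and 0.417 FPKM in intervention, 0.361, 0.819 and 0.691 FPKM in experimental and 0.188, 0.0815 and 0.148 FPKM in control libraries. All 6 libraries of the intervention and experimental groups lay above the control libraries, with mean FPKM 3.36 and 4.48 times that of control (exact two-sided permutation p = 0.1 for each, the smallest that 3 libraries against 3 allow). With the filter lowered to 0.1 FPKM in 3 libraries, limma gave Lif a log2 fold change of 0.37 ± 0.10 in intervention (adjusted p = 0.0369) and 0.50 ± 0.10 in experimental against control (adjusted p = 0.00617). Without any filter, the first of these adjusted p values was 0.0686.

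The receptors that pair with gp130 did not move alike. Osmr encodes the oncostatin M receptor. It was at 1.82, 2.31 and 1.27 FPKM in intervention, 1.90, 3.00 and 2.82 FPKM in experimental and 0.350, 0.279 and 0.370 FPKM in control libraries. The lowest of the 6 higher values, that of intervention replicate 3, was still more than any control value. Osmr rose in experimental (log2 fold change 1.41 ± 0.16, limma adjusted p = 0.000113) and in intervention libraries (1.05 ± 0.16, limma adjusted p = 0.00117), each against control.

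Lifr, the gene of the LIF receptor and the neighbour of Osmr on chromosome 15, was at 3.22, 3.87 and 3.55 FPKM in intervention, 3.31, 3.49 and 3.50 FPKM in experimental and 3.86, 3.11 and 3.22 FPKM in control libraries. The 3 groups overlapped. Its log2 fold change against control was 0.05 ± 0.09 in intervention (95% interval -0.14 to 0.24) and 0.02 ± 0.09 in experimental libraries (-0.18 to 0.21), and both estimates turned below 0 with rescaling to TPM or quantile normalization. The first also did without intervention 2, and the second without control 2 or control 3. Limma called it under none of the 17 alternatives.

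Within a library, Osmr made up 36.1%, 37.4% and 26.3% of the summed FPKM of Osmr and Lifr in intervention, 36.4%, 46.2% and 44.6% in experimental and 8.33%, 8.23% and 10.3% in control libraries. The means were 33.3% ± 6.09, 42.4% ± 5.27 and 8.95% ± 1.17 (SD, n = 3 each). Such a share is not touched by the scaling of a library. Intervention and experimental libraries each stood apart from control (exact two-sided permutation p = 0.1, the smallest possible), and overlapped each other (exact permutation p = 0.2). Adjusted over the 12 within-library comparisons made (4 ratios in 3 pairs of groups), these p values were 0.133 and 0.218. The ratios were chosen after the values were seen.

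Il6ra, which encodes the binding subunit of the interleukin-6 receptor, was at 1.09, 1.70 and 1.35 FPKM in intervention, 2.11, 1.96 and 2.31 FPKM in experimental and 0.657, 0.655 and 0.578 FPKM in control libraries. The 3 groups did not overlap, with intervention in the middle. It rose in experimental libraries (log2 fold change 0.94 ± 0.11, limma adjusted p = 0.000116) and in intervention libraries (0.54 ± 0.11, limma adjusted p = 0.00527), each against control. The second call ended with quantile normalization (log2 fold change 0.29, adjusted p = 0.0597).

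Il6st, the gene of gp130, was the highest of the member receptor genes in every group. It was at 8.49, 9.57 and 9.09 FPKM in intervention, 9.40, 10.9 and 12.1 FPKM in experimental and 8.29, 7.30 and 7.83 FPKM in control libraries. The lowest experimental and the lowest intervention library lay above the highest control library, by a narrow margin for intervention. Il6st rose in experimental libraries (log2 fold change 0.42 ± 0.09, limma adjusted p = 0.00704) and did not pass in intervention libraries (0.19 ± 0.09, limma adjusted p = 0.156), each against control. The first call ended on rescaling to TPM, where the log2 fold change was 0.29 (adjusted p = 0.0701), or 0.47 relative to the median of all genes.

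**Figure D2:**
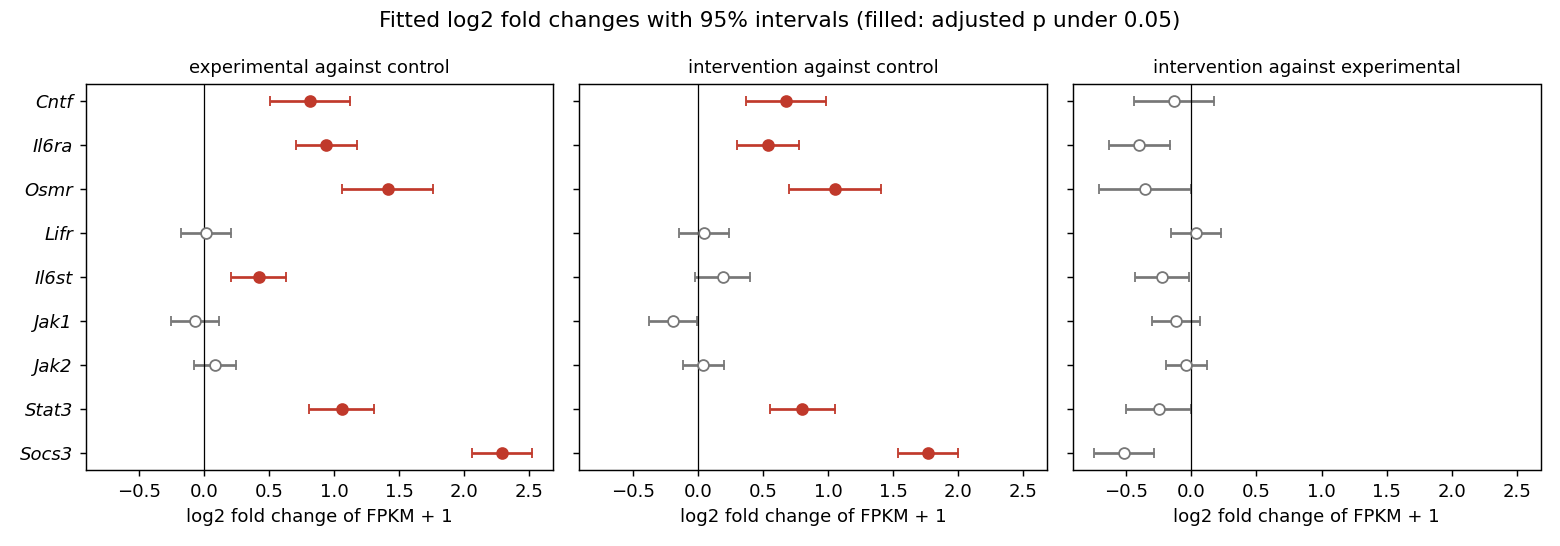
Log2 fold change of FPKM + 1 (horizontal axis) with 95% intervals for the 9 tested members in the 3 comparisons, filled where the limma adjusted p was under 0.05. Socs3 lies farthest to the right at 2.29 in experimental and 1.77 in intervention against control, Lifr, Jak1 and Jak2 are not called in any of the 3, and in intervention against experimental no member is called.

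The kinases carry the signal from receptor to STAT3. Jak1 had the highest level of the 10 genes in every group, at 15.9, 18.5 and 19.5 FPKM in intervention, 19.7, 19.2 and 20.0 FPKM in experimental and 21.7, 20.7 and 19.6 FPKM in control libraries. All intervention libraries lay under all control libraries, by a narrow margin, with a log2 fold change of -0.19 ± 0.08 (95% interval -0.38 to -0.01, limma adjusted p = 0.11). Rescaled to TPM, Jak1 passed (-0.35, adjusted p = 0.0241), which is -0.20 relative to the median of all genes in that comparison, itself at -0.15. In experimental against control the estimate was -0.07 ± 0.08 (limma adjusted p = 0.525).

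Jak2 was at 9.31, 9.34 and 8.86 FPKM in intervention, 9.01, 9.15 and 10.2 FPKM in experimental and 9.06, 9.15 and 8.40 FPKM in control libraries. The groups overlapped. Its log2 fold change against control was 0.04 ± 0.07 in intervention (95% interval -0.12 to 0.20) and 0.08 ± 0.07 in experimental libraries (-0.08 to 0.24), and both turned below 0 on rescaling to TPM.

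Stat3 was at 9.29, 9.53 and 8.20 FPKM in intervention, 9.50, 10.6 and 12.9 FPKM in experimental and 4.61, 4.34 and 5.27 FPKM in control libraries. No control library came near the other 6, and the highest intervention value lay just above the lowest experimental one. Stat3 rose in experimental libraries (log2 fold change 1.06 ± 0.11, limma adjusted p = 7.5e-05) and in intervention libraries (0.80 ± 0.11, limma adjusted p = 0.00074), each against control. Experimental replicate 3, with the highest Stat3, also had the highest Il6st, Il6ra, Cntf and Jak2 of the 9 libraries. Its marker sums were the highest of the 9 for microglia (467.9 FPKM) and neutrophils (14.58 FPKM, most of it Csf3r), and not for the other cell types. Stat3 overlaps the end of Stat5a on the opposite strand by 72 bases, 0.8% of its exon bases, and the sources used here do not say whether counting used strand.

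Socs3 encodes the feedback inhibitor. It was at 6.40, 5.34 and 5.16 FPKM in intervention, 8.04, 9.14 and 8.28 FPKM in experimental and 0.901, 0.763 and 1.17 FPKM in control libraries. The 3 groups lay apart, with the widest gap between control and the others. The log2 fold change was 2.29 ± 0.10 in experimental (limma adjusted p = 4.57e-07) and 1.77 ± 0.10 in intervention against control (limma adjusted p = 4.14e-06). For each FPKM of Stat3 there were 0.689, 0.560 and 0.629 FPKM of Socs3 in intervention, 0.846, 0.864 and 0.645 in experimental and 0.196, 0.176 and 0.222 in control libraries. That ratio averaged 0.626 ± 0.0646, 0.785 ± 0.122 and 0.198 ± 0.0233 (SD, n = 3 each). Intervention and experimental libraries each lay above control (exact permutation p = 0.1) and overlapped each other (exact permutation p = 0.2).

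**Figure D3:**
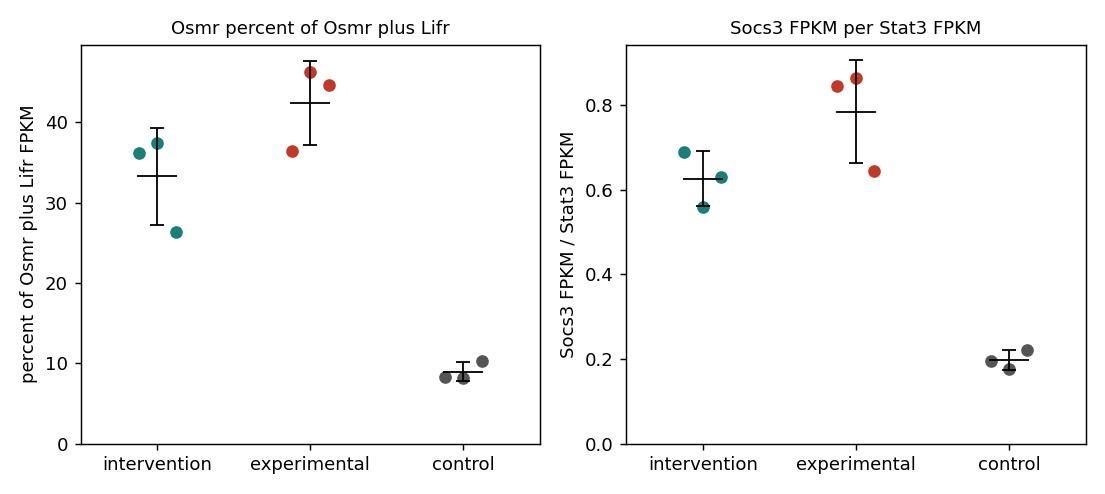
Osmr as a percent of Osmr plus Lifr FPKM (left) and Socs3 FPKM per Stat3 FPKM (right) in each library, with the mean and SD of 3 libraries. Control libraries sit at 8.23% to 10.3% and at 0.176 to 0.222, under all intervention and experimental libraries in both plots.

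The start region of Socs3 is shown because it holds the palindrome TTCNNNGAA, the letters that STAT proteins are known to bind. The search read windows of 300 bases around annotated starts (RefSeq, GRCm38.p6). The palindrome reads the same on both strands. It was found in 8.3% of 32851 such windows of all genes, and of the 10 members in Socs3 alone. Of 20 STAT3 target genes 17 had a window, and Gfap and Icam1 held the palindrome, so they are shown beside Socs3. A match is a description of these letters, not a bound site. In each sequence, written 5′ to 3′ in the direction of the gene, the capitals mark the match. In Socs3 (chr11:117969317-117969616, minus strand) it lies 154 to 146 bases before the RefSeq start, in Icam1 (chr9:21015690-21015989, plus strand) 42 to 34 bases before it, and in Gfap (chr11:102897151-102897450, minus strand) across it. The GENCODE gene span of Socs3 begins farther upstream, so that this match lies inside that span.
Socs3: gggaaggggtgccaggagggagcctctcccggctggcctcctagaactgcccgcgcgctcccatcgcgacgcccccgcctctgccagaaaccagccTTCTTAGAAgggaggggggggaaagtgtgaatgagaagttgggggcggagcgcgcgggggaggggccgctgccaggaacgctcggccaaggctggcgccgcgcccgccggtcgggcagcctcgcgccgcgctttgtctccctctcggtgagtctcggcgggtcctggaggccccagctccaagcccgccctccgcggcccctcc
Gfap: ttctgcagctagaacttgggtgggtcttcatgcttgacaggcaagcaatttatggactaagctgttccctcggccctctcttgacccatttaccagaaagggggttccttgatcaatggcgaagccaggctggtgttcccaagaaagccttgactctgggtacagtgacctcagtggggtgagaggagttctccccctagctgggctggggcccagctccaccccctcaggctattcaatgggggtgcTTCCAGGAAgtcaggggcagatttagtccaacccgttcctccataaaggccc
Icam1: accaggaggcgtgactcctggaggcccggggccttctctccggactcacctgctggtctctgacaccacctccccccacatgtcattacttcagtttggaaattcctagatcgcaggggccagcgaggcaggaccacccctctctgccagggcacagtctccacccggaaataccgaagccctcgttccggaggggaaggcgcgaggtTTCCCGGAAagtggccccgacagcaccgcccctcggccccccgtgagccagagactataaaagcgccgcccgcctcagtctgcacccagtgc

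On the GENCODE M21 annotation (mm10), Stat3 lies on chromosome 11 at 100885098 to 100939540 (ENSMUSG00000004040.16), Socs3 on chromosome 11 at 117966079 to 117970047 (ENSMUSG00000053113.3) and Lif on chromosome 11 at 4257557 to 4272514. Osmr (6813577 to 6874969) and Lifr (7090614 to 7197489) lie on chromosome 15, and Il6st on chromosome 13 at 112464070 to 112510086. Il6ra lies on chromosome 3 at 89864059 to 89913196, Jak1 on chromosome 4 at 101152367 to 101265282, and Jak2 (29251828 to 29313080) and Cntf (12763660 to 12765632) on chromosome 19. All 10 are annotated as protein-coding.

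The order of levels within a group changed in the middle. In control libraries it ran from Jak1 through Jak2, Il6st, Stat3, Lifr, Socs3, Cntf, Il6ra and Osmr to Lif, and of these neighbours only Socs3 and Cntf overlapped. Socs3 stood above Lifr in intervention libraries (5.63 ± 0.671 against 3.55 ± 0.323 FPKM) and experimental libraries (8.49 ± 0.58 against 3.43 ± 0.107 FPKM), and under it in control libraries (0.945 ± 0.208 against 3.40 ± 0.401 FPKM, SD, n = 3 each). In experimental libraries Stat3, Il6st, Jak2 and Socs3 formed a run of overlapping neighbours under Jak1, and in intervention libraries Jak2, Il6st and Stat3 did. Osmr, the ninth in control, overlapped Cntf in both of the other groups.

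Against control, limma called 5 of 9 members higher in intervention libraries (Socs3, Osmr, Stat3, Cntf and Il6ra) and 0 lower. Setting aside Osmr, Il6ra and Cntf, which passed the filter only through the groups where they were higher, it called 2 of the 6 others. Of all genes tested, 16.9% were called higher and 11.4% lower. Rescaled to TPM, 1706 genes were higher and 3622 lower, and with quantile normalization 2009 and 2041. The mean FPKM was 5.96 times that of control for Socs3, 5.41 times for Osmr, 2.38 times for Cntf, 2.19 times for Il6ra and 1.90 times for Stat3. Intervention and control libraries did not overlap in 6 of the 9 tested members that were higher and in Jak1, which was lower. Among all genes this held for 23.5% and 20.5%. For experimental against control, 6 of the tested members were higher without overlap and none lower, against 25.7% and 25.5% of all genes. Lif, which was not tested, was also higher without overlap in both. Osmr, Il6ra and Cntf, set aside above for the calls, are among the 6 higher members in each of these comparisons. The median log2 fold change of the 9 tested members was 0.54 in intervention and 0.81 in experimental libraries, and that of all genes -0.0035 and -0.03. These member medians are the values of Il6ra and Cntf, which passed the filter only through the groups where they were higher.

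In intervention against experimental libraries, limma called 0 of 9 members, and 0% of all 14570 genes. No trend in the fit gave 8 genes lower, quantile normalization 2 higher and 33 lower, and no member was among them. That comparison shares the experimental libraries with the one above. At an unadjusted p under 0.05, 5 members were lower in intervention libraries, and of all genes 6.42% were lower and 2.86% higher. Osmr and Il6ra, among these 5, passed the filter only through the groups where they were higher than control. Socs3 had the smallest p, with a log2 fold change of -0.52 ± 0.10 (95% interval -0.75 to -0.29, limma adjusted p = 0.103), followed by Il6ra (-0.40 ± 0.11, -0.64 to -0.16, limma adjusted p = 0.202). These were the 2 members whose intervention libraries all lay under all experimental libraries, as 8.16% of all genes did, while 5.07% lay above.

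The other members of that group of 5 were Il6st (-0.23, 95% interval -0.44 to -0.02), Stat3 (-0.25) and Osmr (-0.35), the last pair with intervals that ended just under 0. Their limma adjusted p values were 0.491, 0.531 and 0.538. Estimates for Cntf (-0.13), Jak1 (-0.12), Jak2 (-0.04) and Lifr (0.03) had intervals that spanned 0, of which that of Cntf reached -0.44. Mean Lif was 0.468 FPKM in intervention and 0.624 FPKM in experimental libraries (exact two-sided permutation p = 0.4). Over the same libraries, all 4 tested markers of monocytes and macrophages were lower without overlap in the intervention group, with limma adjusted p from 0.0644 to 0.411. F13a1 and Ly6c2, among these 4, passed the filter only through the groups where they were higher than control. Of the endothelial markers, 5 of 6 were lower without overlap, the smallest adjusted p being 0.0677. The share of all genes lower without overlap in this comparison was 8.16%. The part of either list in the Socs3 and Il6ra values was not tested.

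The other genes of the route were read from lists of ligands and receptors of the family, of JAK and STAT genes and of negative regulators. Of the 34 listed, 26 passed the filter. In experimental against control, limma called 10 of these 26 higher and 3 lower, against 19.9% and 17.3% of all genes, with a median log2 fold change of 0.11. In intervention against control it called 9 higher and 3 lower, against 16.9% and 11.4% of all genes, with a median of 0.10. Clcf1 and Ebi3 passed the filter only through the groups where they were higher than control. Of the other 24, limma called 8 higher and 3 lower in experimental and 7 higher and 3 lower in intervention libraries. Without overlap, 12 of the 26 were higher and 6 lower in experimental and 12 and 5 in intervention libraries, each against control. Of all genes 25.7% and 25.5% did so in experimental and 23.5% and 20.5% in intervention libraries. Both counts of 12 include Clcf1 and Ebi3.

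Among ligands and receptors, 3 of 6 tested genes rose in experimental libraries, where 19.9% of all genes were called higher. Of these, Clcf1 and Ebi3 lay under 1 FPKM in every control library and passed the filter only through the groups where they were higher, which leaves 1 of the 4 others called. Clcf1, a ligand of the ciliary neurotrophic factor receptor, averaged 1.57 FPKM in intervention, 1.85 FPKM in experimental and 0.223 FPKM in control libraries (log2 fold change of experimental against control 1.22 ± 0.10). Ebi3, a subunit of interleukins related to the family, averaged 1.37, 1.69 and 0.363 FPKM in the same order of groups (0.98 ± 0.12). Il11ra1, the interleukin-11 receptor, averaged 6.84, 7.18 and 4.97 FPKM (0.47 ± 0.14, adjusted p = 0.0267). In intervention against control, Clcf1 and Ebi3 were the 2 of 6 that rose, while Il11ra1 missed the threshold (limma adjusted p = 0.0582). That leaves 0 of the 4 others called there, where 16.9% of all genes were called higher.

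Cntfr, the receptor that binds ciliary neurotrophic factor, was at 27.7, 24.0 and 25.9 FPKM in intervention, 21.6, 21.7 and 20.9 FPKM in experimental and 22.6, 23.5 and 22.8 FPKM in control libraries. It was the one listed ligand or receptor gene with an unadjusted p under 0.05 in intervention against experimental, where it was higher (log2 fold change 0.26 ± 0.07, limma adjusted p = 0.209). In experimental against control it was -0.10 ± 0.07 (limma adjusted p = 0.3).

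Listed ligands and receptors under the filter were low throughout. Osm, the gene of oncostatin M, which binds the receptor that Osmr encodes, was listed at 0.530, 0.347 and 0.169 FPKM in intervention, 0.429, 0.429 and 0.583 FPKM in experimental and 0.0483, 0 and 0 FPKM in control libraries. All 6 libraries of the first groups lay above control (exact permutation p = 0.1 for each). Il6, the gene of interleukin-6, was listed at 0.0159, 0.0958 and 0.0956 FPKM in intervention, 0.126, 0 and 0.0425 FPKM in experimental and 0 in all control libraries. With no counts, no fold can be given against libraries listed at 0. Il11, Il27 and the receptor gene Il27ra ranged from 0 to 0.416 FPKM over the 9 libraries. Il11 and Il27ra were higher without overlap in both groups against control (exact permutation p = 0.1 for each). Il27ra was also lower without overlap in intervention against experimental libraries (exact permutation p = 0.1).

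Of the other JAK and STAT genes, 5 of 6 tested rose in both groups relative to control, and the exception was Stat5b. The share of all genes called higher was 16.9% in intervention and 19.9% in experimental libraries. Jak3, a kinase of blood cells, averaged 3.19 FPKM in intervention, 3.93 FPKM in experimental and 1.13 FPKM in control libraries. Stat6, the factor of interleukin-4 signalling, averaged 4.17, 5.29 and 2.26 FPKM, and Stat2, a factor of the interferon response, 4.999, 6.338 and 3.689 FPKM, in the same order. The log2 fold changes of experimental against control were 1.21 ± 0.10 for Jak3, 0.95 ± 0.08 for Stat6 and 0.64 ± 0.09 for Stat2 (limma adjusted p of at most 0.000466). Stat4 and Stat5a did not reach the filter and ranged from 0.120 to 0.946 FPKM.

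Of the negative regulators, 2 of 14 tested genes were called higher and 3 lower in experimental against control, near the 19.9% and 17.3% of all genes, with a median of -0.02. Ptpn6, the phosphatase SHP-1 of blood cells, averaged 7.74 FPKM in intervention, 9.69 FPKM in experimental and 1.30 FPKM in control libraries (log2 fold change of experimental against control 2.21 ± 0.13). Ptpn1, another tyrosine phosphatase, averaged 9.65, 11.6 and 7.71 FPKM (0.53 ± 0.07). Socs5, of the same family as Socs3, averaged 13.9, 13.5 and 21.1 FPKM and fell in experimental (-0.61 ± 0.06, limma adjusted p = 6.79e-05) and intervention libraries (-0.57 ± 0.06, limma adjusted p = 0.000194). Pias1, an inhibitor of STAT proteins, averaged 7.14, 6.50 and 8.34 FPKM (-0.32 ± 0.07, limma adjusted p = 0.00586). Intervention against control likewise had 2 genes higher and 3 lower (Socs5, Pias2 and Socs2). The calls of Pias2 and Socs2 were close to the threshold there (limma adjusted p = 0.0409 and 0.0478), and over the pathway genes the count of lower ones was 1 without control 1, 2 or 3, without experimental 1 or 2 or without intervention 1. Socs1, under the filter, ranged from 0.202 to 0.725 FPKM.

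Of 20 genes known as STAT3 targets, 15 rose and 1 fell in experimental against control, with a median log2 fold change of 1.38, against 19.9% and 17.3% of all genes. In intervention against control, 14 rose and 2 fell, with a median of 1.03, against 16.9% and 11.4% of all genes. Timp1, Lcn2, Icam1, Bcl3 and Birc5 lay under 1 FPKM in every control library and passed the filter only through the groups where they were higher. Of the other 15 targets, 10 rose and 1 fell in experimental and 9 rose and 2 fell in intervention libraries. Timp1, an inhibitor of matrix proteases, was at 13.7, 12.1 and 8.75 FPKM in intervention, 16.7, 19.9 and 21.2 FPKM in experimental and 0.317, 0.0617 and 0.167 FPKM in control libraries. Vim, a filament protein of reactive astrocytes, averaged 78.97, 111.1 and 8.653 FPKM in the same order, and Gfap, the astrocyte filament gene, 428.7, 545.4 and 37.9 FPKM. Icam1, an adhesion molecule for leukocytes, averaged 2.565, 3.796 and 0.5612 FPKM. Their log2 fold changes in experimental against control were 4.10 ± 0.15, 3.52 ± 0.19, 3.79 ± 0.21 and 1.62 ± 0.09 (limma adjusted p of at most 1.79e-06). Gfap is also one of the 6 astrocyte markers summed above.

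Fos, an immediate early gene of neuronal activity, fell to 6.55 ± 1.01 FPKM in intervention and 9.03 ± 0.664 FPKM in experimental libraries, against 13.5 ± 2.29 FPKM in control libraries (SD, n = 3 each). Its log2 fold change was -0.94 ± 0.13 in intervention (limma adjusted p = 0.000775) and -0.52 ± 0.13 in experimental libraries (limma adjusted p = 0.0119). Junb, of the same class, was the other gene that fell in intervention against control (limma adjusted p = 0.0314), a call lost without control 1, control 2, intervention 2 or intervention 3 (adjusted p = 0.0866, 0.0938, 0.0859 and 0.077), where 1 target gene was lower. Fos and Junb are named after their values were seen. Without control 3, 2 target genes fell in experimental against control.

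In intervention against experimental libraries, limma called 0 of the 20 targets and 0 of the 26 other pathway genes. At an unadjusted p under 0.05, 10 targets were lower and 0 higher, and of the pathway genes 6 were lower and 1 higher. The shares of all genes were 6.42% lower and 2.86% higher. Without overlap, 9 targets and 5 pathway genes were lower, and 1 of each list was higher, against 8.16% and 5.07% of all genes. The targets include the 5 that passed the filter only through the groups where they were higher than control, Timp1 and Icam1 among them. Timp1 had a log2 fold change of -0.71 ± 0.15 (limma adjusted p = 0.129) and Icam1 -0.43 ± 0.09 (limma adjusted p = 0.13).

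**Figure D4:**
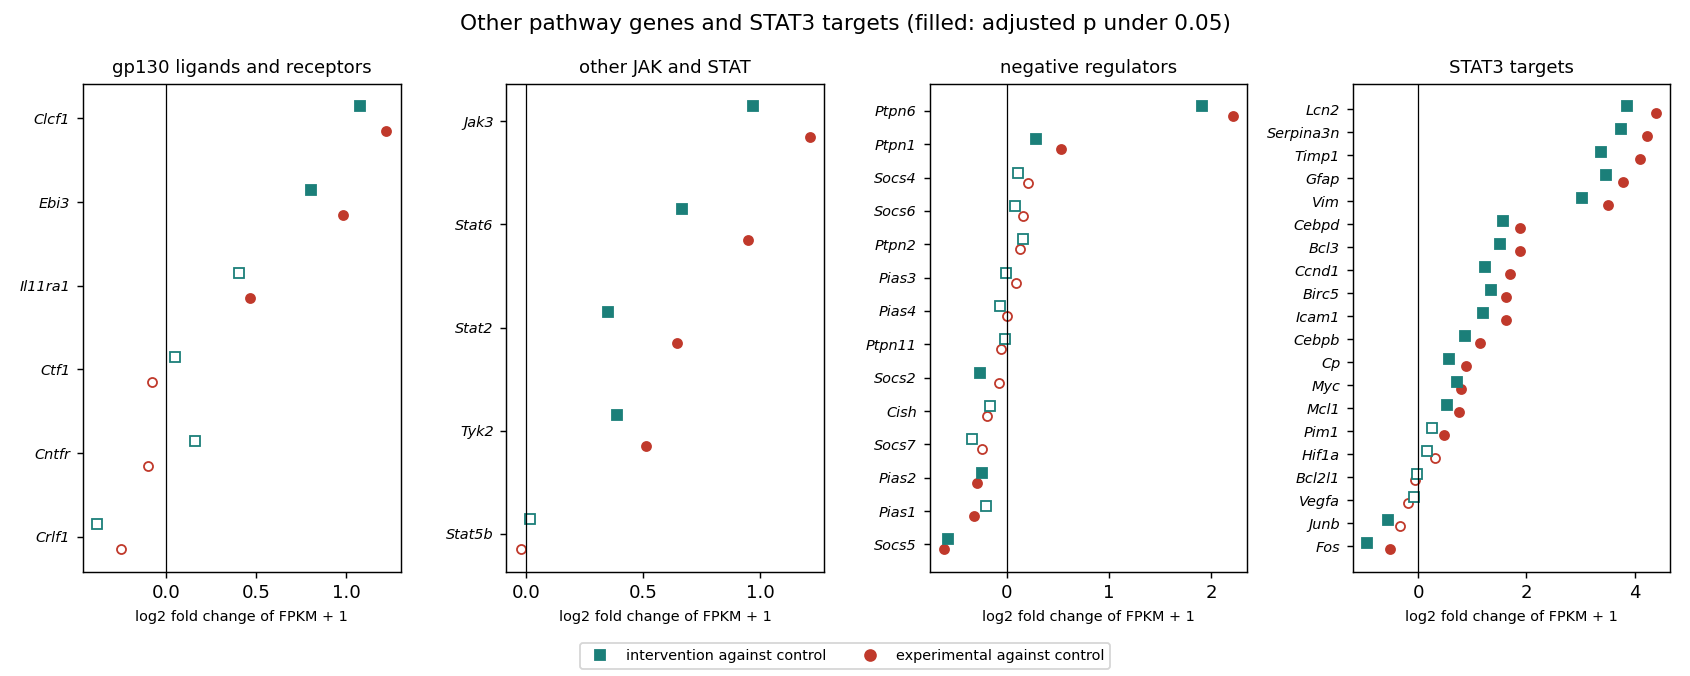
Log2 fold change of FPKM + 1 against control for tested genes of 4 lists (1 gene is not drawn), squares for intervention and circles for experimental libraries, filled where the limma adjusted p was under 0.05. Of the JAK and STAT genes drawn, all but Stat5b are filled in both comparisons, negative regulators fall on both sides of 0, and the targets run from Fos on the left to Lcn2 on the right.

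The genes whose profile over the 9 libraries lay nearest to that of a member were found by the root mean square difference of log2(FPKM + 1), each gene first centred on its own mean, among 12962 genes. For Stat3 these were Rrbp1 (difference 0.05), Tln1 (0.06), Pctp (0.07), Sall1 (0.07) and Rps6ka1 (0.08). For Osmr they were Foxm1 (0.07), Ncaph (0.08), Cep55 (0.08), Knstrn (0.08) and Hmmr (0.09), and all 5 averaged under 0.35 FPKM in control libraries, where Osmr averaged 0.333 FPKM. For Socs3 they were Ftl2-ps (0.09), Tagln2 (0.10), Arpc1b (0.11), Ifitm3 (0.11) and Ctsh (0.12). Ftl2-ps is a ferritin pseudogene whose level is uncertain, since it can share reads with its parent gene. Sall1 is one of the 6 microglial markers summed above. The measure depends on level as well as shape, because 1 is added to each FPKM.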

How the data were processed

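The data are 1 table of FPKM per gene and library, deposited by the authors; per the file headers each of 9 columns is 1 library, and the submitters' processing notes name mm10. The aligner, counter and annotation behind it: not given in the sources used here. Columns were matched to samples by their titles. The table holds no counts, so depth is not known and values carry no interval for counting error.

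All 9 libraries entered 1 linear model (limma 3.58.1, R 4.3.3) on log2(FPKM + 1) with a mean per group, an intensity trend, 6 residual and 3.53 prior degrees of freedom, for 14570 genes with at least 1 FPKM in 3 or more libraries. Tests were two-sided, with p-values adjusted by Benjamini-Hochberg over all those genes and a threshold of 0.05. Intervals are at 95%. The script was tested on simulated data. Nothing in the labels ties replicates to separate animals, so p-values measure only the spread between these libraries, which may be technical. Genes under the filter were compared by an exact permutation test (scipy 1.17.1). Ratios of mean FPKM are descriptions. Sequences come from RefSeq and positions from GENCODE M21.

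Members and lists were chosen with earlier results of these data known. By rule, all members are named, with the 4 genes of each list that had the smallest adjusted p in experimental against control, and the 5 genes nearest in profile to Stat3, Osmr and Socs3; 1 of these list genes is not reported here, and the counts of its list include it. Alternatives were another pseudocount, other filters, TPM, quantile normalization, no trend, only 2 groups in the fit, the replicate number as a block, and leaving out each library.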

Additional observations from a re-analysis of the deposited data

How the results depend on the processing

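The tested members called higher in experimental against control numbered 5 to 7 over the 17 alternatives and 6 in each fit with 1 library left out, and in intervention against control 4 to 6, and 5 with 1 library left out. The counts of 7 and 6 include Lif, tested only with a lower filter. Socs3, Stat3, Osmr and Cntf were called in both comparisons under each alternative, with adjusted p of at most 0.0299. Members called lower in intervention against control numbered 1 (Jak1) rather than 0 with TPM.

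The pathway genes called lower in experimental against control numbered 3, but 6 with TPM and 5 with quantile normalization. In intervention against control they numbered 3, but 5 with TPM and 1 with no filter, with the filter at 0.1 FPKM, with only the 2 groups compared or with the replicate block. With 1 library left out the count ran from 1 to 3. STAT3 targets called lower in experimental against control numbered 1, but 4 with TPM and 1 to 2 with 1 library left out. In intervention against control they numbered 2, but 1 with no filter or with only the 2 groups compared, and 1 to 2 with 1 library left out. Where a fit lost a library, the remaining ones were assumed to vary like the other groups. TPM divides each library by its FPKM sum, which is higher in the intervention and experimental groups. The causes of the other changes were not tested.

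Correlations between the deviations of same-numbered libraries ran from -0.536 to 0.209. With 3 libraries a group, such values cannot show whether same-numbered libraries were handled together, and the labels do not say. With the replicate block, the member counts were 6 and 5, and of all genes 2666 were higher and 2036 lower in experimental and 2102 and 1149 in intervention against control, where the fit without the block gave 2461 and 1659. Genes called lower there numbered 1069 with no filter and 850 to 1581 with 1 library left out. Depth is unknown, which limits what can be said of Lif, Osm and Il6.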
